A study of Danio rerio with 6 samples.

Results

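Proteasome genes were examined in regrowing tail fins of larval zebrafish kept in beclomethasone, a synthetic glucocorticoid. They were chosen by name: every gene for which the probe annotation gives a probe set a single symbol that starts with psm and a letter from a to g. The rule took 50 of the 8793 genes with a single symbol, through 61 of 15502 probe sets. Of these genes 15 encode the core particle, 21 carry names of the 19S regulator, 8 belong to the immunoproteasome (psmb8 to psmb13) or the PA28 activators (psme), and 4 encode an inhibitor or chaperones of core assembly. The other 2, psmc3ip and psme3ip1, are named for binding a subunit and encode no subunit, and they are described apart. RefSeq lists 9 further genes matching the rule, among them psmd14, psma3 and psme4a, which were not analysed here.

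Larvae of the AB strain had their caudal fins cut at 2 days post fertilization, and the regrowing tissue was taken 1 day later. The exposed group had 1 uM beclomethasone in the water for that day and is represented by 3 pools. The control group, also 3 pools, consisted of amputated larvae without the steroid. The protocol of the exposed pools calls the control DMSO, whereas the labels of the control pools belong to a time course of regeneration and mention no vehicle. Each pool held 150 fins, and 100 ng of its total RNA was labelled in a 2-cycle protocol for one Affymetrix zebrafish array. Pooling averages over larvae, so p-values measure the spread between pools, and the labels do not say whether pools came from separate clutches. No batch is labelled, and exposure cannot be told apart from any difference in handling that went with it. The tissue was not sorted by cell type, so for any gene fewer cells of a type and less RNA per cell cannot be told apart.

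The proteasome is the main protease of the cytosol and nucleus. Its core particle is a barrel of stacked rings: alpha subunits gate the entry, and beta subunits carry the peptidase sites inside. The 19S regulator caps the barrel, binds ubiquitin-tagged proteins, and unfolds them with a ring of ATPases. Immune cells and cells under interferon exchange the 3 catalytic beta subunits for immunoproteasome forms, whose peptides serve antigen presentation on MHC class I. In mammalian skeletal muscle, glucocorticoids are known for increasing protein breakdown through ubiquitin and the proteasome.

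The deposited values are ratios per probe set. Most are relative to the median of that probe set across the 6 arrays, so a value near 1 means close to that gene's middle pool and says nothing of its level. Of the 61 member probe sets, 56 had a median of 1 within 1e-06 and 5 a lower one (lowest 0.477), with a divisor that is not known. All differences below subtract the control mean from the exposed mean of log2 ratios, with standard errors (SE) from a limma fit to all genes and Benjamini-Hochberg adjustment over all 8793. Array medians of the ratio lay between 0.955 and 0.998. Control pool 1 stood apart from the other control pools in leukocyte markers (14 genes). Their median log2 ratio was -0.13, 0.66 and 0.80 over control pools 1 to 3, and between -0.13 and -0.01 in exposed pools. Skeletal muscle markers (15 genes) had medians of 0.90, 0.02 and 0.07 over exposed pools 1 to 3, and of -1.86, 0.00 and -1.44 over the control pools in the same order. None of the 15 muscle markers passed an adjusted p of 0.05 (limma), while 13 were higher at an unadjusted p under 0.05, against 24.1% of all genes in either direction. Epidermal markers, the tissue covering the fin, were measured for all 22 listed genes. Of these, 11 fell and 2 rose at an adjusted p under 0.05, against 4.58% and 4.24% of all genes.

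No proteasome gene passed an adjusted p of 0.05 between exposed and control fins, which does not show that the groups were equal. None of the 50 was lower, where 4.58% of all genes were called lower, and none was higher, where 4.24% were called higher (limma). At an unadjusted p under 0.05 there were 7 members, 3 lower and 4 higher, or 14.0%, against 24.1% of all genes. The members' median difference was 0.01, beside 0.02 over all genes. The middle 50% of members lay between -0.07 and 0.10, and the middle 50% of all genes between -0.14 and 0.16. The extremes among members were the PA28 genes psme2 at -0.59 and psme1 at 0.43, both subunits of an activator outside the core and the 19S regulator.

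Most intervals of these ratios were narrow, although signal over background is unknown, so they need not bound a change in the transcript. For 42 of the 50 members the 95% interval of the difference stayed within 0.5 on the log2 scale in either direction, that is within 1.41-fold. The 42 include psmd12, for which the gene mean hides probe sets of opposite sign with intervals reaching past 0.5. This held for 84.0% of members and for 55.2% of all genes. For 49 members the interval stayed within 2-fold, psme2 being the exception with an interval of -1.03 to -0.15. Pools of a group were close together: the median SD over members was 0.09 in exposed and 0.11 in control pools, against 0.13 and 0.14 over all genes. The members' ratios per gene ran from 0.479 to 1.59 over all 6 arrays. The low end was psmb13a, whose probe set had a median of 0.528 and whose pools all lay between 0.479 and 0.549. The plot of differences by subunit class shows the narrow band of core and 19S genes around 0.

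**Figure D1:**
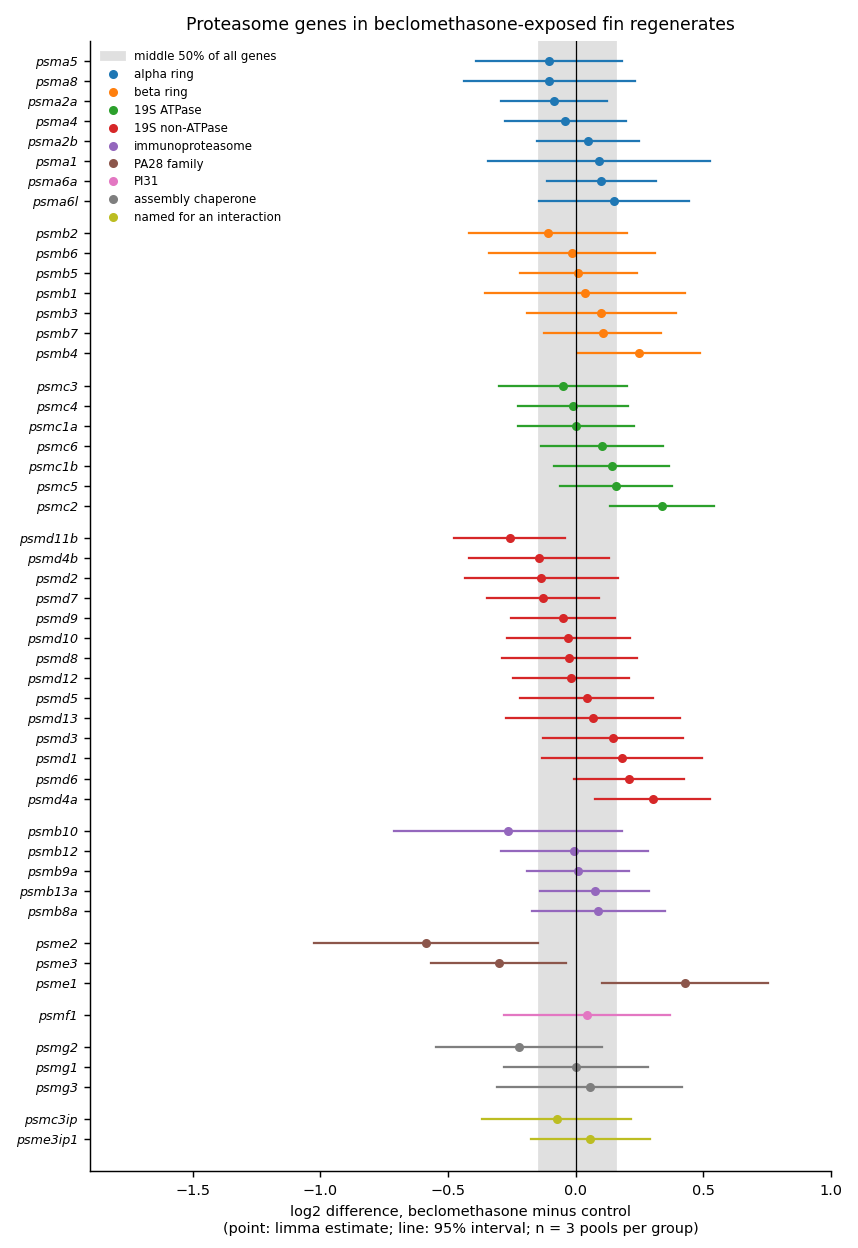
Log2 difference between beclomethasone-exposed and control pools (horizontal axis) for each of the 50 genes, grouped by class, with the 95% interval from limma (n = 3 pools per group) and a grey band for the middle 50% of all genes. No member passed an adjusted p of 0.05; most core and 19S points lie in or near the band, and psme2 (-0.59) and psme1 (0.43) lie farthest out on either side.

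The core particle genes differed little between the groups. Their 15 differences ran from -0.11 to 0.25 with a median of 0.04, and 9 were above and 6 below 0. In the alpha ring, psma6l had the smallest p. Its ratios were 1.04, 0.956 and 1.12 in exposed fins (pools 1 to 3) and 1.08, 0.839 and 0.903 in control fins (pools 1 to 3). Control pool 1 lay among the exposed values, and the difference was 0.15 ± 0.13 (SE, n = 3 pools per group; adjusted p = 0.553). The related gene psma6a gave 0.10 ± 0.09 (adjusted p = 0.591), and psma5, the alpha gene farthest in the other direction, gave -0.11 ± 0.12 (adjusted p = 0.686). Psma1 had the widest spread among alpha genes, with 0.782, 1.05 and 1.02 in the exposed and 1.03, 0.976 and 0.694 in the control pools.

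In the beta ring, psmb4, which encodes a structural subunit without a peptidase site, was the one core gene whose groups did not overlap. Its ratios were 1.03, 1.07 and 1.06 in exposed fins (pools 1 to 3) and 0.800, 0.970 and 0.893 in control fins (pools 1 to 3). The exposed pools were nearly equal and all above the controls, yet the difference of 0.25 ± 0.10 did not pass (unadjusted p = 0.0440, adjusted p = 0.192; 1.19-fold). Of the 3 catalytic subunit genes of the standard core, psmb5 and psmb6 lay close to 0, and all 3 intervals included 0. The chymotrypsin-like subunit gene psmb5 gave 0.01 ± 0.10, with an interval of -0.22 to 0.24. The caspase-like subunit gene psmb6 gave -0.01 ± 0.14 (-0.34 to 0.31), and the trypsin-like subunit gene psmb7 gave 0.11 ± 0.10 (-0.12 to 0.34). Psmb2, farthest in the other direction, gave -0.11 ± 0.13 (adjusted p = 0.706).

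Among the 21 genes with 19S names, 11 differences were above and 10 below 0, with a median of 0.002. The ATPase genes, whose products form the unfolding ring, had a median of 0.10 over 7 genes. Control pool 3 was the lowest control for 6 of the 7, and their median log2 ratio was -0.05, -0.02 and -0.20 over control pools 1 to 3. Psmc2 came closest of all members to the threshold. Its ratios were 1.1, 1.16 and 1.09 in exposed fins (pools 1 to 3) and 0.914, 0.878 and 0.862 in control fins (pools 1 to 3). All exposed pools were above all controls, and the difference was 0.34 ± 0.09 (1.26-fold; unadjusted p = 0.00567, adjusted p = 0.0569). With array weights in the fit its adjusted p was 0.0211, and with a variance trend and robust fitting 0.0428; over all alternatives it ran up to 0.180. Psmc5 had the next smallest p among the ATPases (0.16 ± 0.09, adjusted p = 0.371). Its exposed ratios of 1.01 to 1.08 lay above the control ratios of 0.872 to 0.988. Psmc1b and psmc6 gave 0.14 and 0.10, while psmc1a lay at 0.002, psmc4 at -0.01 and psmc3, the lowest, at -0.05.

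The non-ATPase genes of the regulator went both ways, with 6 of 14 above 0. Psmd4a, one of a pair of genes for a ubiquitin receptor of the regulator, had ratios of 1.06, 1.15 and 1.08 in exposed fins (pools 1 to 3) and 0.820, 0.917 and 0.937 in control fins (pools 1 to 3). The groups did not overlap, and the difference was 0.30 ± 0.10 (adjusted p = 0.106). Its paralog psmd4b gave -0.14 ± 0.12 (adjusted p = 0.536), with exposed ratios of 0.830, 1.06 and 0.869 and control ratios of 0.992, 1.03 and 1.01. The exposed pools of psmd4b straddled the controls, exposed pool 2 being above all of them. Psmd11b, for a lid subunit, was the 19S gene with all exposed pools below all controls. Its ratios were 0.958, 0.899 and 0.851 in the exposed and 1.11, 1.04 and 1.09 in the control pools. The difference was -0.26 ± 0.09 (unadjusted p = 0.0254, adjusted p = 0.138). Of the large scaffold subunits, psmd1 gave 0.18 ± 0.13 and psmd2 gave -0.13 ± 0.13. Control ratios (pools 1 to 3) were 0.747, 0.995 and 0.984 for psmd1 and 0.925, 1.06 and 1.24 for psmd2. Over the alternatives the difference ran from 0.05 to 0.25 for psmd1 and from -0.24 to -0.02 for psmd2. Psmd5, psmd9 and psmd10, whose mammalian products assist the assembly of the regulator and are not part of the finished particle, gave 0.04, -0.05 and -0.03.

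Non-overlap of the groups was no more frequent among members than on the array. All exposed pools lay above all control pools for 7 members (psme1, psmc2, psmd4a, psmb4, psmd6, psmc5 and psmc1b), or 14.0%, against 16.0% of all genes. For psmc1b this held for the gene mean and for the probe set with a difference of 0.30, but its other probe sets overlapped. All exposed pools lay below all controls for 3 members (psme2, psme3 and psmd11b), or 6%, against 13.7% of all genes. Psmd6 and psmc1b, named after their values were seen, had differences of 0.21 ± 0.09 (adjusted p = 0.217) and 0.14 ± 0.10 (adjusted p = 0.442). The plot of pool values for these 10 genes shows how small the gaps between the groups were for most of them.

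**Figure D2:**
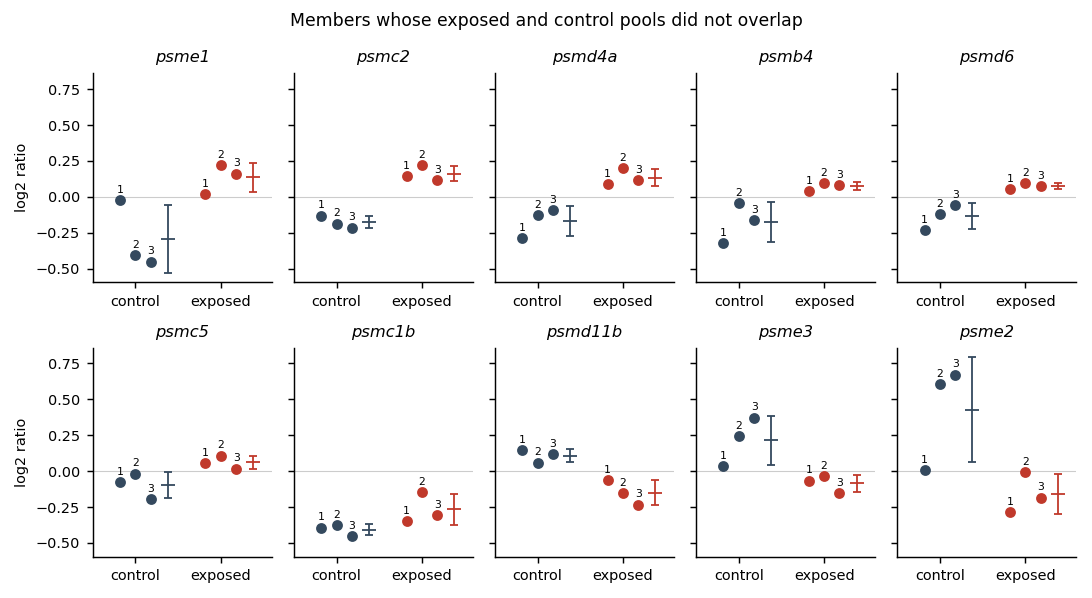
Log2 ratio in each pool (vertical axis; numbers are pool numbers) of the 10 members whose 3 exposed (red) and 3 control (blue) pools did not overlap, with group mean and SD beside the points. Control pool 1 lies next to the exposed pools for psme1, psme2 and psme3, whereas for psmc2 the 3 control pools lie together.

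The 5 immunoproteasome genes did not pass, and their median difference was 0.01. Psmb8a, psmb9a and psmb10 encode the inducible counterparts of the chymotrypsin-like, caspase-like and trypsin-like subunits. Psmb8a had ratios of 1.15, 0.936 and 1.03 in exposed fins (pools 1 to 3) and 0.967, 0.923 and 1.04 in control fins (pools 1 to 3). The groups overlapped, and the difference was 0.09 ± 0.11 (adjusted p = 0.712). Psmb9a ran from 0.910 to 0.966 over all pools, with a difference of 0.01 ± 0.09 (adjusted p = 0.962). Psmb10 was the most variable, with 0.721, 1.16 and 0.880 in the exposed and 0.965, 1.27 and 1.03 in the control pools. Its difference was -0.26 ± 0.19 (adjusted p = 0.476), and its interval of -0.71 to 0.18 was the widest among the catalytic subunits. Psmb12 and psmb13a, further immunoproteasome-type genes, gave -0.004 ± 0.12 and 0.07 ± 0.09. The probe sets of psmb9a and psmb13a had medians below 1. In the RefSeq gene order psmb13a, psmb8a, psmb12 and psmb9a follow each other with no other protein-coding gene between, beside the MHC class I genes mhc1uka and mhc1uba.

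Setting each inducible subunit against the standard subunit it replaces gave no common direction. Within a pool, the log2 ratio of psmb8a minus that of psmb5 was 0.04 ± 0.20 (SD, n = 3) in exposed and -0.04 ± 0.16 in control pools. For psmb9a minus psmb6 it was -0.05 ± 0.17 and -0.08 ± 0.20. For psmb10 minus psmb7 it was -0.20 ± 0.26 and 0.17 ± 0.22. The last pair differed most, by -0.37, but the groups overlapped: exposed pool 2 (0.07) lay above control pool 1 (-0.07). These are differences of ratios and not of levels, and they were not tested.

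Of all members, the PA28 genes psme1 and psme2 had the largest differences between the groups, in opposite directions. In mammals psme1 and psme2 encode partner subunits of 1 activator ring that opens the core, and both are induced by interferon. Psme1 had ratios of 1.01, 1.17 and 1.12 in exposed fins (pools 1 to 3) and 0.986, 0.753 and 0.732 in control fins (pools 1 to 3). All exposed pools were above the controls, control pool 1 by little. The difference was 0.43 ± 0.14 (1.35-fold; unadjusted p = 0.0163, adjusted p = 0.107). Psme2 had ratios of 0.822, 0.995 and 0.880 in the exposed and 1.00, 1.52 and 1.59 in the control pools. Here control pools 2 and 3 stood high, and control pool 1 was just above exposed pool 2. The difference was -0.59 ± 0.19 (1.5-fold lower; unadjusted p = 0.0157, adjusted p = 0.105). Psme3, for the nuclear member of the family, had 0.955, 0.976 and 0.900 in the exposed and 1.02, 1.18 and 1.30 in the control pools, with a difference of -0.30 ± 0.11 (adjusted p = 0.157).

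The values of both partner subunits, given above, were also set against each other within each pool. They are differences of ratios and not of levels, and add no evidence beyond those values. The log2 ratio of psme1 minus that of psme2 was 0.30, 0.23 and 0.35 in exposed fins (pools 1 to 3) and -0.03, -1.01 and -1.12 in control fins (pools 1 to 3). The exposed pools were alike, and the gap came from control pools 2 and 3. This pair was chosen after its values were seen and is given without a test. Without control pool 1, psme1 was called higher (0.56, adjusted p = 0.0207) and psme2 lower (-0.80, adjusted p = 0.00739). With array weights both were called as well (adjusted p = 0.0205 and 0.0366). Without any 1 other pool neither was called, with adjusted p between 0.157 and 0.269. The number of genes called on the whole array also moved with the setting. It ran from 172 to 618 lower and from 160 to 592 higher, beside 403 and 373 in the main fit.

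The median of the leukocyte markers differed among the control pools as psme2 and psme3 did, and opposite to psme1. Of the 14 leukocyte markers measured out of 20 listed, lgals9l1 and grna fell, cxcr4b and lyz rose, and the median difference was -0.65. Over all genes 4.58% were called lower and 4.24% higher. Control pool 1 was the lowest control for 11 of the 14, whereas it was the lowest for 32.0% of all genes. For 2 markers, cxcr4b and arhgdig, it was the highest control, as for psme1. Outside the leukocyte list, control pool 1 was the lowest control for 14 of 15 skeletal muscle markers and 11 of 12 vacuolar ATPase genes. Among 22 epidermal markers it was so for 1. A low control pool 1 was therefore not particular to leukocyte markers. Ratios of the 14 leukocyte markers ran from 0.320 to 4.06, which says nothing of their level. The pan-leukocyte gene ptprc had ratios of 0.996, 2.52 and 2.30 in control fins (pools 1 to 3) and 0.882, 1.00 and 0.956 in the exposed pools. Control pools 2 and 3 stood high, as for psme2, and ptprc itself did not pass (-0.92 ± 0.33, adjusted p = 0.138). Of 11 MHC class I partner genes measured out of 25 listed, 3 fell and none rose, against 4.58% and 4.24% of all genes. The list median was 0.02. Those that fell were the light chain gene b2m (-1.54 ± 0.23, adjusted p = 0.0104), the class I gene mhc1zba (-0.95 ± 0.13, adjusted p = 0.00740) and the interferon-response factor gene irf1b (-1.33 ± 0.32, adjusted p = 0.0471). For irf1b the control ratios of 1.09, 2.24 and 2.52 again set pools 2 and 3 above pool 1. The part of leukocyte content in the values of psme1, psme2 and psme3 was not tested.

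**Figure D3:**
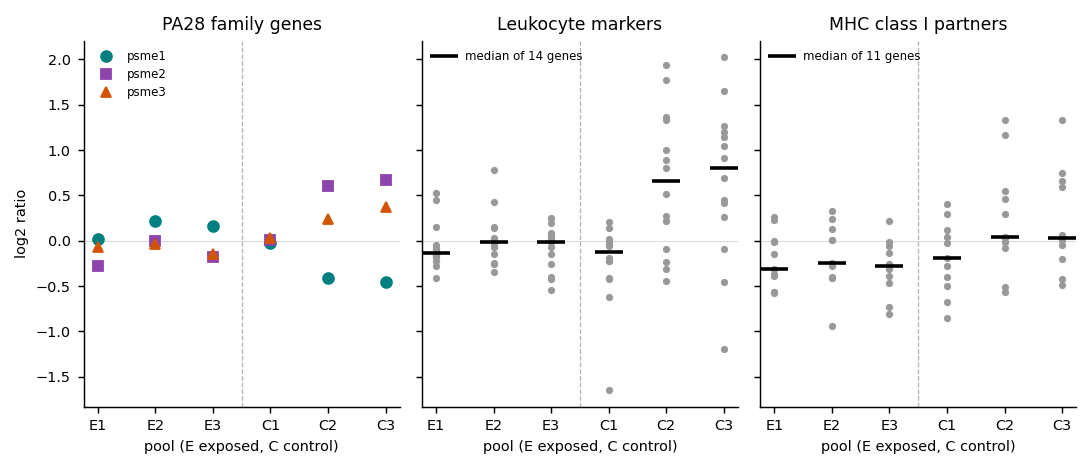
Log2 ratio (vertical axis) in exposed pools E1 to E3 and control pools C1 to C3 of the PA28 genes, of 14 leukocyte markers and of 11 MHC class I partner genes (grey points, 1 per gene; black bar, their median). Control pools 2 and 3 lie high for psme2 and the leukocyte median and low for psme1, and for these control pool 1 lies near the exposed pools. Among the MHC class I partners, b2m (0.41) and mhc1zba (0.29) in control pool 1 lie above all their exposed pools.

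The inhibitor and the assembly chaperones of the core did not pass either. Psmf1, for the inhibitor PI31, gave 0.04 ± 0.14 (adjusted p = 0.891). Psmg2, whose mammalian product pairs with that of psmg1 in a chaperone of alpha ring assembly, had ratios of 0.990, 1.01 and 0.889 in the exposed and 1.26, 1.2 and 0.926 in the control pools. Control pool 3 lay inside the exposed range, and the difference was -0.22 ± 0.14 (adjusted p = 0.405). Psmg1 gave 0.002 ± 0.12 and psmg3 gave 0.05 ± 0.15 (adjusted p = 0.878). All 3 psmg genes were highest in control pool 1 and lowest in control pool 3 among the controls. Of the genes that encode no subunit, psmc3ip, known for meiotic recombination, gave -0.07 ± 0.12 and psme3ip1 gave 0.06 ± 0.10 (adjusted p = 0.792 for both).

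For 8 members more than 1 probe set was measured, and in psmd12, a lid subunit gene, they disagreed. One probe set had ratios of 0.907, 0.907 and 0.812 in exposed fins (pools 1 to 3) and 1.12, 1.13 and 1.09 in control fins (pools 1 to 3), with a difference of -0.35 ± 0.10 (adjusted p over all probe sets = 0.0836). The other had 1.11, 1.22 and 1.04 in the exposed and 0.813, 0.964 and 0.932 in the control pools, with a difference of 0.32 ± 0.12 (adjusted p = 0.172). Neither overlapped between the groups, and their 95% intervals, -0.58 to -0.12 and 0.04 to 0.59, excluded each other. The mean of both, -0.02 ± 0.10, therefore describes neither. Which transcripts each probe set reads was not analysed here. In psmc1b the 3 probe sets ran from 0.04 to 0.30, the lowest being one with a median ratio of 0.477. Its probe set at 0.30 had an interval of 0.02 to 0.59 (adjusted p = 0.208). In psmc3ip, psmg1 and psme3ip1 the probe sets differed in sign but each interval included 0. Probe sets of paralogs such as psma2a and psma2b, psmc1a and psmc1b, or psmd4a and psmd4b may share signal, and probe sequences were not used here.

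**Figure D4:**
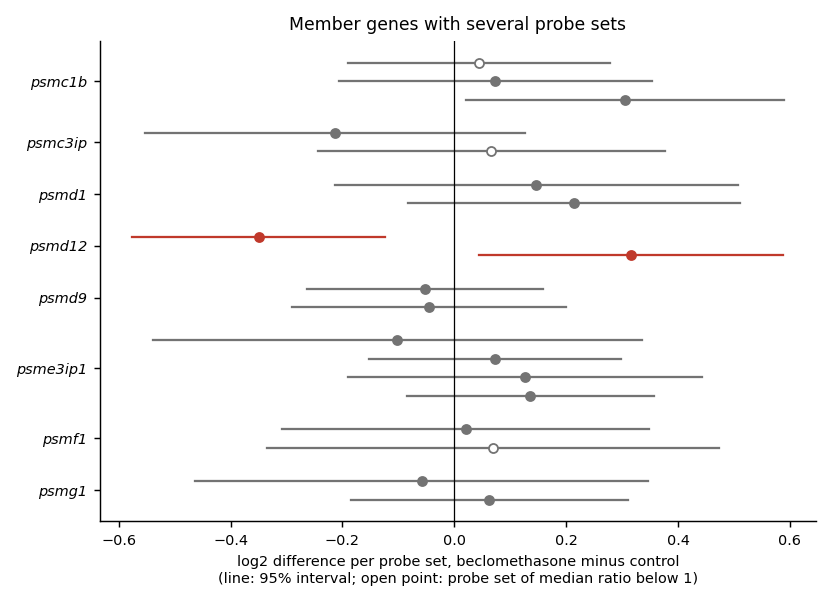
Log2 difference and 95% interval (horizontal axis) of each probe set of the 8 members measured by several probe sets. The psmd12 probe sets (red) lie on opposite sides of 0, at -0.35 and 0.32, while those of the other genes overlap.

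Some differences between pools of the same group were shared by many core and 19S genes. Exposed pool 2 was the highest exposed pool for 27 of these 36 genes, or 75%, whereas it was the highest for 32.1% of all genes. In the controls, pool 3 was the lowest for 18 of the 36, or 50%, against 32.9% of all genes. The core median was 0.09 in exposed pool 2 and -0.16 in control pool 3, while the other 4 pools lay between -0.02 and 0.06. For the 19S genes the median was 0.09 in exposed pool 2 and between -0.06 and -0.01 in the other pools. The 2 kinds of 19S genes differed in control pool 3. It was the lowest control for 6 of 7 ATPase genes (median -0.20), but for 3 of 14 non-ATPase genes, of which 7 were highest there (median 0.01). For the CCT chaperonin, another ring-shaped machine of the cytosol, the median was also highest in exposed pool 2 (0.13) and lowest in exposed and control pools 3 (-0.13 in both). Exposed pool 2 was the highest exposed pool for 5 of 8 CCT genes and 62.5% of immunoproteasome and PA28 genes. Of the lists described below, it was so for 64% of proteasome partners and 57.1% of COP9 genes. For eIF3 and vacuolar ATPase genes the shares were 30.8% and 33.3%. The sign of the core's median difference, 0.04, rested on these pools: it was -0.03 without exposed pool 2 and -0.06 without control pool 3.

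The genes that work with the proteasome were also not called. Of 42 listed partners, 25 were measured, with a median of 0.07, and none passed in limma over all genes. At an unadjusted p under 0.05, 1 was lower and 4 were higher, or 20%, against 24.1% of all genes. Zfand5a, whose mammalian counterpart stimulates the proteasome, had ratios of 1.06, 1.21 and 1.08 in exposed fins (pools 1 to 3) and 0.941, 0.577 and 0.606 in control fins (pools 1 to 3) (0.69 ± 0.19, adjusted p = 0.0703). Nfe2l2a, for a factor of the oxidative stress response, had 1.07, 1.11 and 1.13 in the exposed and 0.989, 0.479 and 0.433 in the control pools (0.90 ± 0.29, adjusted p = 0.108). In both, as in psme1, control pools 2 and 3 stood low and control pool 1 lay near the exposed pools. The regulator-bound deubiquitinase gene uchl5 gave -0.52 ± 0.21 (adjusted p = 0.187), and usp14, for another, gave -0.07 ± 0.14. The core maturation factor gene pomp gave -0.01 ± 0.08, and the ubiquitin receptor gene adrm1 gave 0.18 ± 0.11 (adjusted p = 0.390).

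Other large assemblies gave 0 or 1 call each, and the cell cycle list gave many. None of 8 CCT genes and none of 13 eIF3 genes passed in limma, with medians of 0.04 and 0.07. At an unadjusted p under 0.05, 1 and 2 were higher, or 12.5% and 15.4%, against 24.1% of all genes. Of 7 genes of the COP9 signalosome, which resembles the 19S lid, cops7a rose (0.39 ± 0.09, adjusted p = 0.0451). Of 12 vacuolar ATPase genes, atp6v0cb rose (1.05 ± 0.23, adjusted p = 0.0350). Over all genes 4.24% were called higher and 4.58% lower. Of 27 cell cycle markers, 22 fell and none rose, with a median of -0.90. The 95% interval of only 1 proteasome gene, psme2, reached that value. The difference between the lists was not tested.

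**Figure D5:**
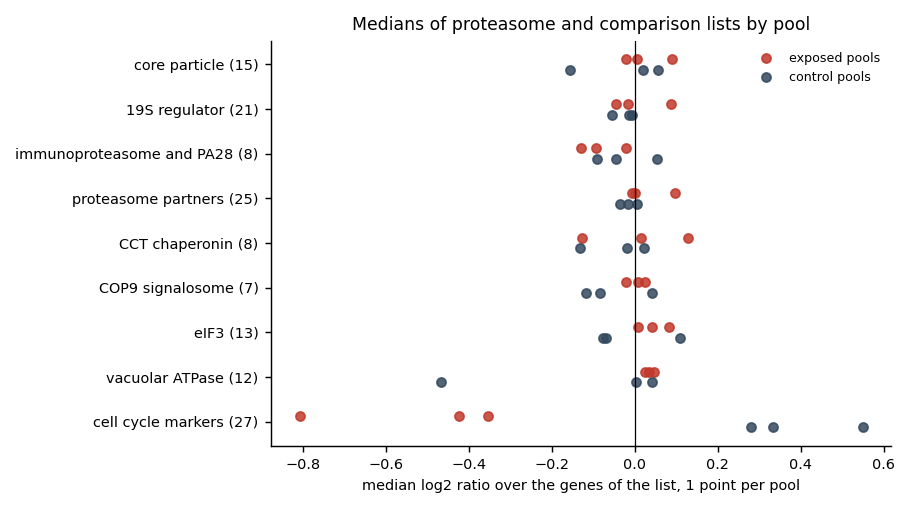
Median log2 ratio over the genes of each list (horizontal axis; number of genes in brackets), with 1 point for each exposed (red) and control (blue) pool. Exposed and control pools overlap in the proteasome lists and most comparison lists, whereas the cell cycle medians lie between -0.81 and -0.35 in exposed and between 0.28 and 0.55 in control pools.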

How the data were processed

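Per the labels, total RNA was hybridised to 1-colour arrays; GCRMA, a background correction and summary method, is named per the submitters' processing notes, with no version. The deposited values are read as a linear ratio per probe set; no source used here describes that division, which was inferred from the values (12601 of 15617 medians are 1 within 1e-06, 3015 lower). Neighbouring genes follow RefSeq's GRCz12tu order. After 115 control probe sets were left out, log2 ratios were averaged per gene with a single symbol and fitted over all genes with limma 3.58.1 in R 4.3.3 (two-sided, threshold 0.05), with no pseudocount or filter. The fit was tested on simulated data. Signal over background is unknown, and the number of arrays limits the precision.

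Values are given for the 2 genes of smallest p per class, the gene farthest the other way, immunoproteasome and PA28 genes, and genes whose probe sets disagree in sign; others were named after their values were seen. Members and lists were chosen with earlier results of these data known. No sequence was printed, and a planned promoter motif search was not run. Alternatives were other normalizations, variance models, array weights, a replicate block, a pseudocount of 1, filters, probe-set choices, thresholds, and each array left out.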

Additional observations from a re-analysis of the deposited data

How the results depend on the processing

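The count of proteasome genes called lower was 0 and of those called higher 0 under quantile normalization, median centring and a pseudocount of 1. Both counts were also 0 with the probe set of largest variance per gene, with probe sets as the unit, and without probe sets of median below 1. With any 1 array left out each count ran from 0 to 1, the calls being psme2 lower and psme1 higher without control pool 1. Higher counts were 1 with a variance trend and robust fitting (psmc2), 2 with array weights (psmc2 and psme1, with 1 lower, psme2) and 1 at an adjusted p threshold of 0.1 (psmc2). Without control pool 1 and exposed pool 1 together, a choice made after the data were seen, 1 was lower (psme2) and 1 higher (psme1). The core median difference, 0.04 as reported, was lowest (-0.062) when control pool 3 and highest (0.087) when exposed pool 1 was left out. The immunoproteasome and PA28 median, 0.002 over all 8 genes, was -0.13 without probe sets of median below 1, which removes psmb9a and psmb13a. Over 15 alternatives, 20 members changed sign, and none of these was called. Each had a difference of at most 0.10 in size in the main fit. The alternatives reached further, as for psma1, which ran from -0.08 to 0.33. Counts over all genes ran from 172 to 618 lower and from 160 to 592 higher, beside 403 and 373. Over all genes, deviations from the group means had correlations of -0.22, -0.08 and 0.08 between pools of the same number. Between pools of unlike numbers they ran from -0.20 to 0.26. With 3 pools per group, these values cannot show whether the numbers pair the pools. With the replicate block, 0 members were lower and 0 higher, and 213 and 178 of all genes.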

Other observations

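In the gene order of RefSeq (assembly GRCz12tu), pck2 beside psme1 passed the test over all genes. Near psme2 only atp2a1l passed, which lies beyond its nearest genes. No difference between neighbours was tested. Pck2, for the mitochondrial form of the gluconeogenic enzyme PEPCK, lies beside psme1 and rose by 1.01 ± 0.13 (SE, n = 3 pools per group; limma adjusted p = 0.00520), the direction of the psme1 value. Eloca, on the other side of psme1, gave -0.10 ± 0.22. The nearest measured genes of psme2 did not pass: emc9 gave 0.15 ± 0.16 (adjusted p = 0.673) on one side and drosha, with the sign of psme2, gave -0.21 ± 0.12 (adjusted p = 0.331) on the other. Beyond emc9, irf9, for an interferon-response factor, gave -0.07 ± 0.11, and atp2a1l, named for a calcium pump of muscle, rose by 2.69 ± 0.39 (adjusted p = 0.00885). Beside the immunoproteasome genes, mhc1uka gave 0.02 ± 0.10, brd2a 0.07 ± 0.10 and hsd17b8 0.25 ± 0.12 (adjusted p = 0.254), so none of the 3 measured neighbours there passed.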
